A study of Mus musculus with 6 samples.

Results

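Quiescence, recirculation and stem-like genes were examined in cultured mouse Th17 cells, the helper T cells that make interleukin-17. The 9 genes were Klf2, Klf3, S1pr1, Foxo1, Foxo3, Tcf7, Lef1, Bach2 and Satb1, matched by symbol out of 39179 gene identifiers in the count files. Their names were chosen with earlier results of these data known, so the choice may not be independent of the values below. RNA came from 3 libraries of cells cultured with 30 ng/mL desIgf1, a shortened form of insulin-like growth factor 1 with low affinity for IGF-binding proteins, and from 3 control libraries cultured without it. All cells started as naive CD4+ T cells from spleens of C57BL/6 mice that carried an Il17a reporter (hCD2), an Ifng reporter (Thy1.1) and a Foxp3 reporter (GFP). Both groups were kept for 5 days with irradiated feeder splenocytes from which CD4+ cells had been removed, and with anti-CD3 at 5 µg/mL. The cytokines were TgfB at 2.5 ng/mL and IL6 at 20 ng/mL, and the blocking antibodies anti-Ifng and anti-IL4 each stood at 10 µg/mL. Only cells positive for hCD2 and negative for Thy1.1 and GFP were taken for RNA, so the libraries describe reporter-positive cells of a culture and not tissue Th17 cells. The treatment text of every library names desIgf1, while the titles and the series design separate cultures with and without it, and the groups follow the titles. No label says whether libraries came from separate mice or cultures, so the spread that the p-values rest on is that between these 6 libraries and may be technical.

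Naive T cells circulate between blood and lymph nodes under a programme in which FOXO transcription factors are active. AKT, a kinase downstream of the insulin and IGF receptors, phosphorylates FOXO proteins and moves them out of the nucleus. Klf2 is among the genes that FOXO1 drives, and KLF2 in turn drives S1pr1, the receptor by which lymphocytes leave lymph nodes toward sphingosine 1-phosphate. TCF-1 (Tcf7), LEF-1, BACH2 and SATB1 are nuclear factors of naive, memory and stem-like T cells. These relations are background and were not measured here, where only RNA levels are available.

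The libraries held 34567899 to 47929948 counts in genes, and T cell marker genes (Cd3d, Cd3e, Cd3g, Cd4, Cd2 and Lck) summed to 4762 to 5404 CPM (counts of a gene scaled to 1000000 counts per library) in all 6. Marker genes of other cells were few. CD8 T cell markers (2 genes) summed to 3.22 to 7.85 CPM in controls and 4.98 to 11.0 CPM with desIgf1. Nearly all of this was Cd8b1, at 3.22, 5.96 and 7.82 CPM in controls and 4.98, 10.2 and 10.9 CPM with desIgf1. Cd8a had at most 5 counts in any library. NK cell markers (3 genes, with Ncr1 and Klra8 at 0) summed to 1.93 to 2.06 and 1.90 to 2.48 CPM. B cell markers (5 genes) summed to 1.18 to 3.32 CPM in controls and 1.14 to 1.59 CPM with desIgf1, macrophage and monocyte markers (5 genes) to 4.07 to 11.8 and 9.51 to 14.1 CPM, dendritic cell markers (6 genes, with Xcr1 and Siglech at 0) to 0.745 to 2.29 and 1.02 to 3.31 CPM, and neutrophil markers (3 genes) to at most 0.573 CPM. The endothelial markers Cdh5, Kdr and Tek had at most 6 counts in any library, and the sum of that list was nearly all Pecam1, at 150 to 271 CPM in controls and 230 to 251 CPM with desIgf1. In a principal component analysis of log2 CPM, the leading axis (43.5% of the variance) set both libraries numbered 3 apart from the other 4. The next axis (27.0%) set the groups apart, with desIgf1 libraries at 13.1, 39.8 and 16.7 and controls at -35.0, -22.3 and -12.3. In bulk RNA, fewer cells with a transcript and less of it per cell cannot be told apart.

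The Krüppel-like factor genes Klf2 and Klf3 were the members that differed most between the groups, and both were lower with desIgf1. Klf2 encodes a zinc finger transcription factor that keeps T cells quiescent and recirculating, and lies on chromosome 8 (72319033 to 72321656, plus strand, GRCm38). Klf3, on chromosome 5 (64803388 to 64832901, plus strand), encodes a related factor that acts mostly as a repressor. The stretches just upstream of their annotated starts are shown because these members, with S1pr1 and Lef1, had groups that did not overlap. They come from the RefSeq promoter table for GRCm38.p6, which held entries for 8 of the 9 members, S1pr1 being the exception. Each is written 5′ to 3′ on the plus strand, the gene's own strand, and ends before the first base that GENCODE M21 or RefSeq assigns to the transcript. Capitals mark matches on either strand to a MEF2 motif (CTA and TAG with any 4 bases between them), a KLF-type CACC box (CACCC or GGGTG), a FOXO motif (TGTTTAC or GTAAACA), a TCF/LEF motif (TCAAAG or CTTTGA) or a BACH and AP-1 motif (TGANTCA).
Klf2, chr8:72318812-72319032: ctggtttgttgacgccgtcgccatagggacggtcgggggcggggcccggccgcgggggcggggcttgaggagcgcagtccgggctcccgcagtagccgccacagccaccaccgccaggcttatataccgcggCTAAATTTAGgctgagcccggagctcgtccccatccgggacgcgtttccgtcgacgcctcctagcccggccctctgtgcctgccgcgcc
Klf3, chr5:64803271-64803387: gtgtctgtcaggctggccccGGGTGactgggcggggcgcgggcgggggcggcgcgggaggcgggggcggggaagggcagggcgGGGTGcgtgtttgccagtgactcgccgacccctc
Lef1, chr3:131110047-131110296: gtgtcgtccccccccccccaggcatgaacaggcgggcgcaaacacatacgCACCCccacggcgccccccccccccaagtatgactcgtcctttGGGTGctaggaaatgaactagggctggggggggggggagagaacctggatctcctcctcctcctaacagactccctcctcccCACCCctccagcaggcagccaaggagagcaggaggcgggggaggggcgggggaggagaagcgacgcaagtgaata

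The Klf2 stretch held a MEF2 match 118 bases before the RefSeq start, and no other member had one in its windows of 300 bases. Of all 32851 windows in the table, 3.69% held this motif. MEF2 proteins, which the kinase ERK5 activates, are known regulators of Klf2. The printed Klf3 stretch held 2 CACC boxes and the Lef1 stretch 3. The full windows of 300 bases held 1 for Klf2, 5 for Klf3 and 3 at the first Lef1 start. Of all windows 57.5% held at least 1, so the presence of a CACC box does not set these genes apart. The exact FOXO letters TGTTTAC or GTAAACA were found in the windows of 1 member, Tcf7, at the second of its RefSeq starts. They were found in 3.65% of all windows. Looser forms of the FOXO motif were not searched, so the other windows may hold them. That site, in capitals within the transcript strand of chr11:52282577-52282605 (minus strand), is shown because it was the FOXO match among the members.
Tcf7: cctttataggaGTAAACAgacccccgcca
No member window held the BACH and AP-1 motif, which 7.81% of all windows hold, and Lef1 and Bach2 held the TCF/LEF motif, found in 16.0%. These are letter matches in short windows and not measured binding.

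Klf2 was at 129, 76.8 and 62.8 CPM in control libraries 1, 2 and 3. With desIgf1 it was at 45.3, 33.9 and 23.1 CPM in libraries 1, 2 and 3. Every desIgf1 library lay below every control, and the libraries numbered 1 were the highest of their group. Without a term for the replicate number, the log2 fold change (log2 of the desIgf1 level over the control level) was -1.40 ± 0.33 (SE), and the gene did not pass edgeR's quasi-likelihood test after Benjamini-Hochberg adjustment over all 13846 tested genes (adjusted p = 0.378). With the replicate number as a block, which compares libraries of the same number, the log2 level of Klf2 fell by 1.38 ± 0.11 (2.60-fold, edgeR adjusted p = 0.0245). The pairing behind the block was read from these same data, and no label states it. Dropping number 1, 2 or 3 from the blocked edgeR fit kept this call (adjusted p = 0.00785, 1.62e-07 and 7.64e-04). Those fits had 1 pair fewer and called 0.513%, 4.42% and 7.64% of all genes, against 0.318% with all pairs. Their smaller adjusted p-values therefore do not make the call firmer. Over 17 alternative settings the adjusted p ran from 9.99e-18 to 0.9995 and the log2 fold change from -1.65 to -1.03.

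Klf3 had the fewest counts of the members, 127 to 629 per library. It was at 13.8, 6.22 and 8.88 CPM in controls and at 3.91, 3.02 and 2.65 CPM with desIgf1. The groups did not overlap, and the controls spread more widely than the desIgf1 libraries. The log2 fold change was -1.59 ± 0.33 (3.02-fold lower) and did not pass edgeR with or without the block (adjusted p = 0.316 without it). DESeq2 called Klf3 and Klf2, both lower (adjusted p = 2.59e-04 and 0.00206), and no other member, against 1.47% of the 14193 genes to which it gave an adjusted p. With the block DESeq2 called 4.05% of such genes and 4 members: Klf2, Klf3 and S1pr1 as lower and Satb1 as higher. A transcript on the opposite strand, Gm20033, overlaps exons of Klf3 and had at most 21 counts.

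**Figure D1:**
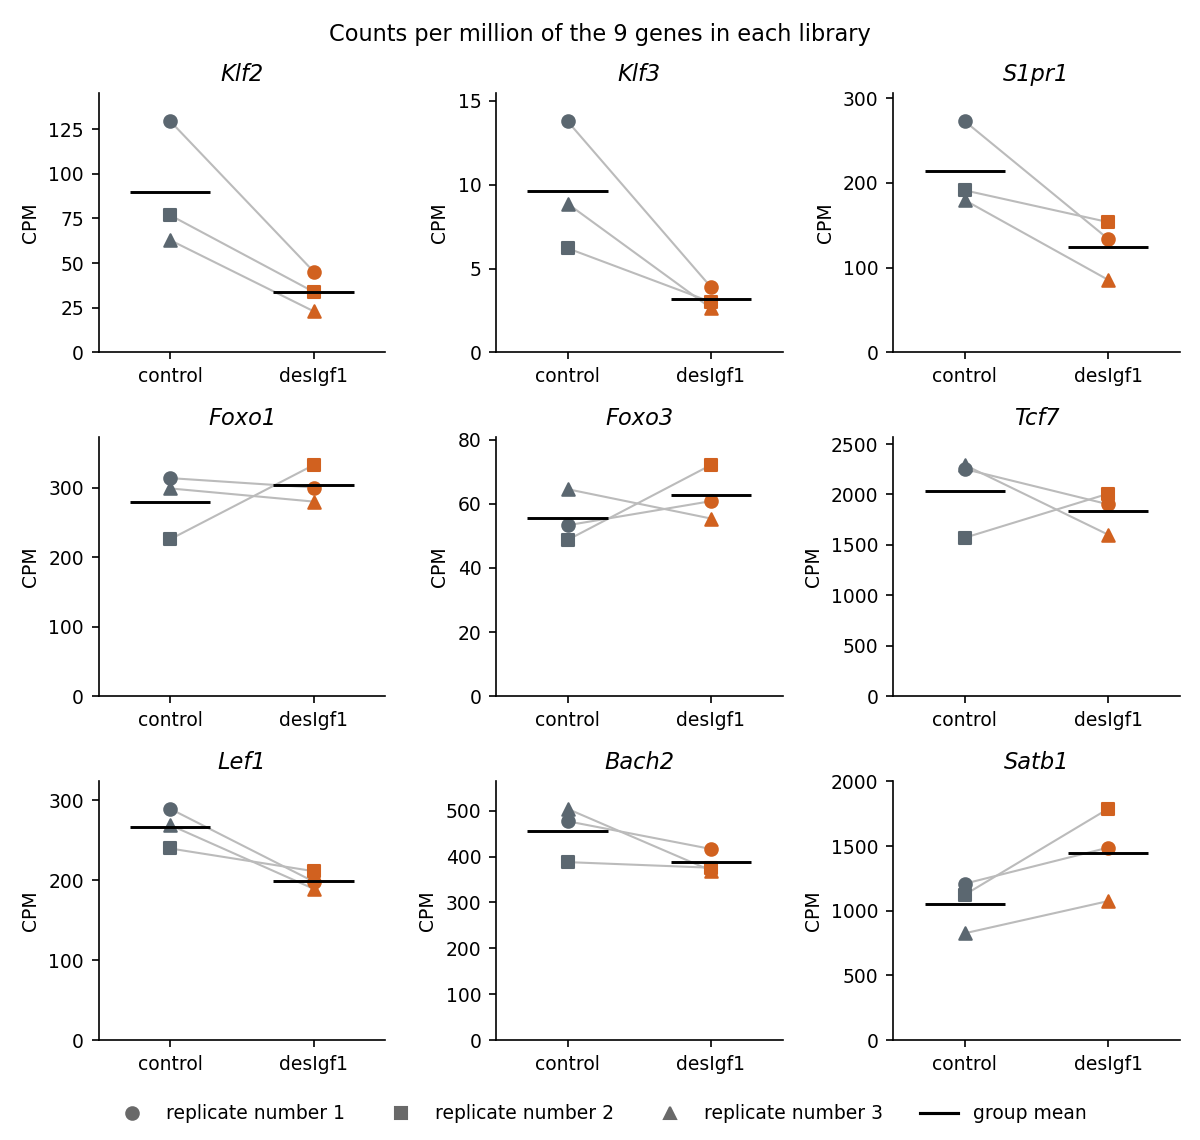
CPM (y axis, from 0) of the 9 genes in each control and desIgf1 library (x axis); marker shapes give the replicate number, grey lines join libraries of the same number and black bars are group means (n = 3). All 3 desIgf1 libraries lie below all 3 controls for Klf2, Klf3, S1pr1 and Lef1, while the groups of the other 5 genes overlap.

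S1pr1, the receptor for sphingosine 1-phosphate, lies on chromosome 3 (115710433 to 115715072, minus strand). It was at 273, 191 and 180 CPM in controls 1, 2 and 3. With desIgf1 it was at 134, 154 and 85.7 CPM. The groups did not overlap, but the gap between them, from 154 to 180 CPM, was smaller than the spread within either group. The log2 fold change was -0.79 ± 0.24 (1.72-fold lower, 95% interval -1.35 to -0.22, not adjusted for the number of genes), and S1pr1 did not pass edgeR (adjusted p = 0.501). Within replicate numbers 1, 2 and 3 its log2 CPM differed by -1.02, -0.31 and -1.07, so the libraries numbered 2 differed least. B cells also express Klf2, Klf3 and S1pr1. The 5 B cell markers summed to at most 3.32 CPM in any library, while S1pr1 was at 85.7 CPM or more, Klf2 at 23.1 CPM or more and Klf3 at 2.65 to 13.8 CPM. The part of B cells, or of other remaining cells such as CD8 T cells, in these differences was not tested.

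Foxo1 and Foxo3, the FOXO genes among the members, overlapped between the groups. Foxo1 (chromosome 3, 52268336 to 52353221, plus strand), the main FOXO factor of T cells, was at 314, 226 and 299 CPM in controls and at 300.3, 333 and 280.1 CPM with desIgf1. Its log2 fold change was 0.12 ± 0.14 (edgeR adjusted p = 0.819), and the 95% interval of -0.21 to 0.45 leaves room for a modest change in either direction. Foxo3 (chromosome 10, 42181841 to 42276755, minus strand) was at 53.3, 48.7 and 64.5 CPM in controls and at 60.8, 72.1 and 55.4 CPM with desIgf1. Its log2 fold change was 0.18 ± 0.15 (edgeR adjusted p = 0.734, interval -0.17 to 0.52). For both genes control library 2 was the lowest and desIgf1 library 2 the highest of the 6. Without control library 2 the log2 fold change of Foxo1 was -0.00970. AKT acts on FOXO proteins and not on their transcripts, and protein or its location was not measured.

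Tcf7 and Lef1, related high-mobility-group factors of naive and stem-like T cells, differed in how the groups lay. Tcf7 (chromosome 11, 52252371 to 52283014, minus strand) was at 2252, 1571 and 2292 CPM in controls and 1903, 2008 and 1602 CPM with desIgf1. The groups overlapped (log2 fold change -0.15 ± 0.17, edgeR adjusted p = 0.816), and the difference was -0.24 and -0.52 in log2 CPM within numbers 1 and 3 and 0.35 within number 2. Without the libraries numbered 3 in both groups the sign of its log2 fold change turned (0.04). Lef1 (chromosome 3, 131110471 to 131224356, plus strand) was at 289, 240 and 269 CPM in controls and at 198, 211 and 189 CPM with desIgf1. Its groups did not overlap, with a log2 fold change of -0.41 ± 0.10 (1.33-fold lower, interval -0.65 to -0.18), and it did not pass edgeR (adjusted p = 0.396).

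Bach2 and Satb1 had overlapping groups. Bach2 (chromosome 4, 32238804 to 32586108, plus strand), a repressor that holds back effector programmes, was at 477, 388 and 504 CPM in controls and at 417, 376 and 370 CPM with desIgf1. Its log2 fold change was -0.24 ± 0.12 (edgeR adjusted p = 0.634), and control library 2 lay among the desIgf1 libraries. Satb1 (chromosome 17, 51736187 to 51833290, minus strand), a chromatin organizer of T cell development, was at 1209, 1124 and 826 CPM in controls and at 1488, 1787 and 1074 CPM with desIgf1. It was the member with the largest difference toward higher levels (log2 fold change 0.46 ± 0.21, adjusted p = 0.622), higher within each replicate number by 0.30, 0.67 and 0.38 in log2 CPM. desIgf1 library 3 lay below control libraries 1 and 2, so the groups overlapped although every numbered pair pointed the same way.

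Across the 9 members, 0 passed edgeR without the block, as did 0 of 13846 genes (0%), and 1, Klf2, passed with it, where the block called 0.318% of all genes and 0.137% as lower. At an unadjusted p under 0.05 in the unblocked fit 1130 genes (8.16%) passed. Of the members 4 had groups that did not overlap, all with desIgf1 lower, against 13.5% of all genes in either direction, 6.18% lower and 7.31% higher. The median log2 fold change of the members was -0.24, with 3 above and 6 below 0, and that of all tested genes was -0.01. Within replicate numbers, Klf2, Klf3, S1pr1, Lef1 and Bach2 were lower with desIgf1 in all 3, Satb1 was higher in all 3, and Foxo1, Foxo3 and Tcf7 differed in sign between numbers. Over all genes 17.2% were lower and 20.9% higher in all 3 numbers. In all 9 members number 2 gave the highest of the 3 differences. The members that were lower with desIgf1 were thus least so in the libraries numbered 2. The share of all genes with this pattern was not counted, so it is not known to be particular to the members.

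**Figure D2:**
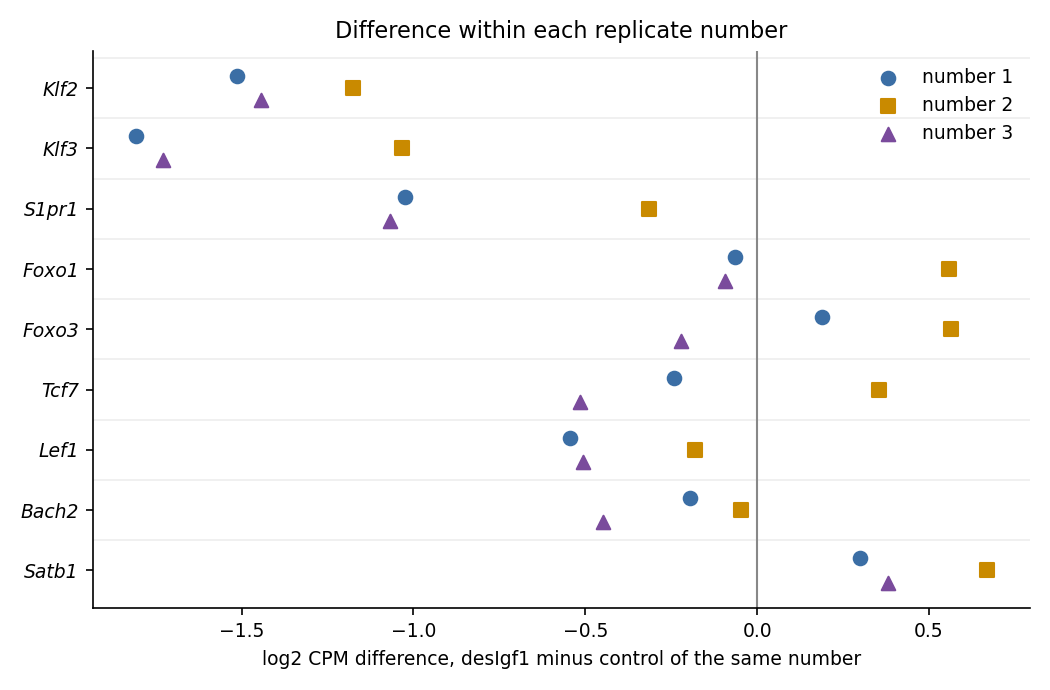
Difference in log2 CPM (x axis, desIgf1 minus the control library of the same number) for each gene (y axis), with 1 point per replicate number. Klf2 lies at -1.51, -1.18 and -1.44 for numbers 1, 2 and 3, and number 2 is the rightmost point of every gene.

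Without both libraries numbered 3, which stood apart on the leading axis, the unblocked log2 fold changes were -1.38 for Klf2, -1.53 for Klf3, -0.69 for S1pr1 and -0.37 for Lef1, and none of these passed edgeR (adjusted p = 0.0967, 0.142, 0.141 and 0.187). Leaving out control library 1, the highest control for Klf2, Klf3, S1pr1 and Lef1, gave -1.03, -1.24, -0.57 and -0.35. With the block, 6 members passed edgeR without the libraries numbered 2 (Klf2, Klf3, S1pr1, Lef1 and Tcf7 lower, Satb1 higher), where 4.42% of all genes passed. Without those numbered 3, 3 members passed (Klf2, Klf3 and S1pr1, all lower) beside 7.64% of all genes, and without those numbered 1 only Klf2 passed beside 0.513%. The calls over all genes thus rose from 0.318% in each case. Those of the members rose without number 2 or 3 and stayed at Klf2 alone without number 1. The direction of Klf2, Klf3, S1pr1 and Lef1 held in all 17 alternatives.

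**Figure D3:**
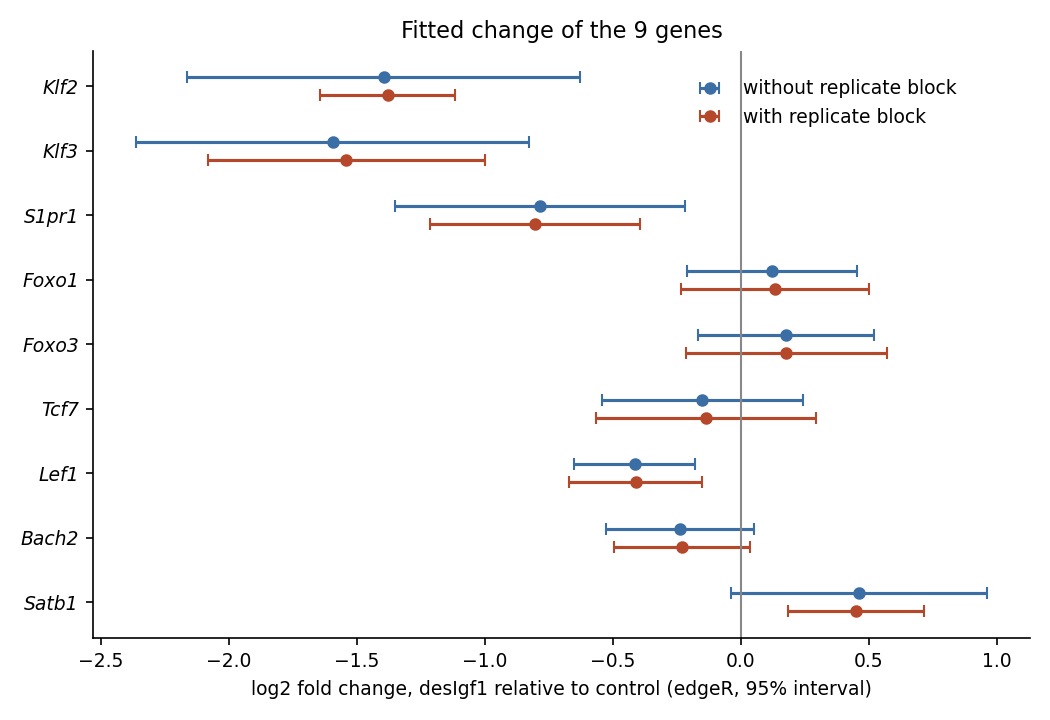
Log2 fold change with its 95% interval (x axis; intervals not adjusted for the number of genes) for each gene (y axis) from edgeR without and with the replicate block. The interval of Klf2 runs from -2.16 to -0.63 without the block and from -1.64 to -1.12 with it, and those of Foxo1, Foxo3, Tcf7 and Bach2 include 0 in both fits.

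Levels were set between genes as CPM per kilobase of annotated exon. In controls Tcf7 was highest at 777 ± 154 (SD, n = 3), above 99.9% of tested genes and with no overlap with the next. S1pr1 (70.5 ± 16.7), Satb1 (55.3 ± 10.6), Klf2 (48.5 ± 19.0) and Bach2 (45.9 ± 6.11) followed, and each overlapped its neighbour in that order. Foxo1 (32.3 ± 5.43) and Lef1 (30.3 ± 2.84) overlapped each other and lay below Bach2. Foxo3 was at 7.33 ± 1.08 and Klf3 at 0.856 ± 0.342, both apart from their neighbours. With desIgf1, Klf2 was at 18.5 ± 6.02 per kilobase, below Lef1 (22.7 ± 1.26) by group mean. Exon length is the union over all annotated transcripts, up to 19027 bases for Satb1 and 11243 for Klf3, which lowers these genes if the cells use shorter transcripts.

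Klf2 and Klf13 were the most abundant of 10 tested Krüppel-like factor genes in controls. By CPM per kilobase Klf2 made up 29.0 ± 6.39% (SD, n = 3) of their summed level in controls and 13.3 ± 3.14% with desIgf1, with 23.5% as the lowest control and 16.7% as the highest desIgf1 library. A two-sided exact permutation test of this share gave p = 0.1, the smallest that 3 libraries against 3 allow, and 0.267 after adjustment over 8 such shares. The shares of Klf3 here and of Foxo4 among the FOXO genes gave the same values in this test. None of the 8 shares passed after adjustment. Klf13, named after its values were seen, was at 55.5 ± 7.16 per kilobase in controls and 52.2 ± 7.98 with desIgf1. Of the 8 tested Krüppel-like factors outside the members 0 passed either fit, with a median log2 fold change of 0.13. Klf9 was the other family member whose groups did not overlap, at 12.5 ± 1.68 CPM in controls and 8.90 ± 0.791 CPM with desIgf1 (edgeR adjusted p = 0.530). Klf4, a factor close to Klf2 in sequence, was at 7.91 ± 6.77 and 9.12 ± 5.41 CPM (adjusted p = 0.941). Among the FOXO genes Foxo1 made up 59.3 ± 1.99% of the summed level per kilobase in controls and 61.6 ± 0.960% with desIgf1, Foxo3 13.6 ± 1.38% and 14.5 ± 0.509%, and Foxo4 27.2 ± 0.710% and 23.9 ± 0.688%.

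**Figure D4:**
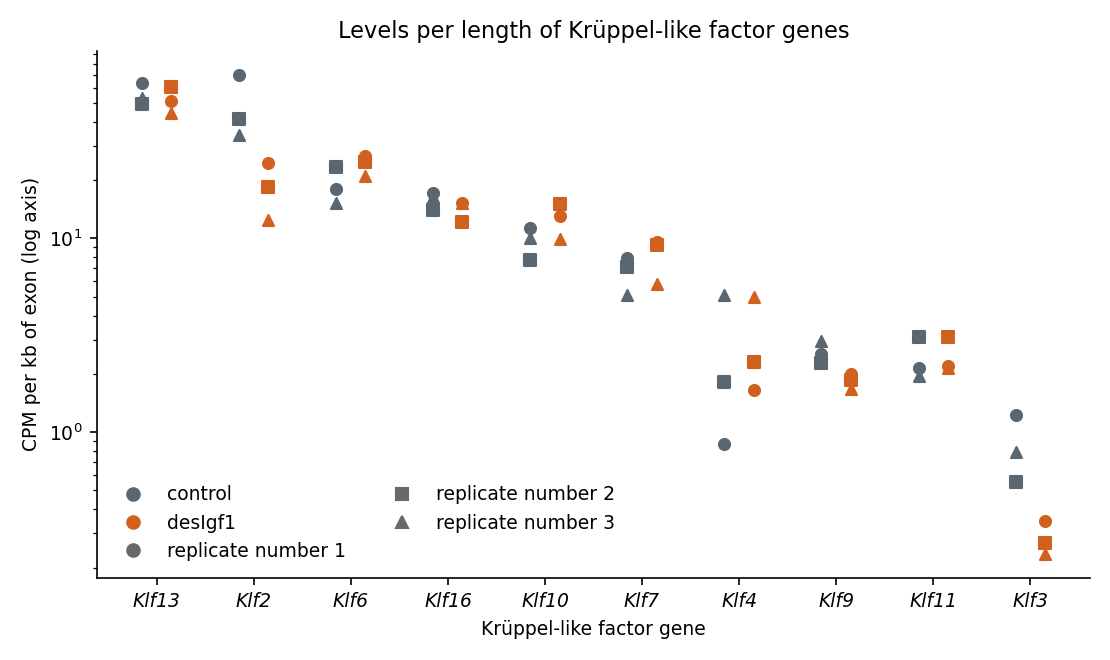
CPM per kilobase of exon (y axis, log scale) of 10 Krüppel-like factor genes (x axis) in each control and desIgf1 library, with marker shapes for the replicate number. Klf2 lies between 34.0 and 70.1 in controls and between 12.5 and 24.5 with desIgf1, and Klf13 overlaps between the groups.

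Lists of related genes were read in the same fit. Of 9 recirculation and homing genes 1 rose and 0 fell with the block, and 0 passed without it. Gpr183, a receptor for oxysterols that guides lymphocytes, was at 38.9, 40.3 and 29.3 CPM in controls and at 80.8, 118 and 62.1 CPM with desIgf1, and its log2 level rose by 1.23 ± 0.13 in the blocked edgeR fit (adjusted p = 0.0440, and 0.302 unblocked). Over the alternatives its adjusted p ran from 1.07e-11 to 0.886. Its groups did not overlap, and it was higher in every desIgf1 library, opposite in direction to Klf2 and S1pr1.

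S1pr2 and S1pr4, the other sphingosine 1-phosphate receptors examined, also had separate groups. S1pr4 was at 133, 97.6 and 125 CPM in controls and at 88.7, 76.9 and 81.7 CPM with desIgf1 (log2 fold change -0.52 ± 0.14, edgeR adjusted p = 0.406). S1pr2 was at 30.5 ± 1.42 CPM in controls and 39.5 ± 2.31 CPM with desIgf1 (0.37 ± 0.10, adjusted p = 0.452). S1pr1 and S1pr4 were thus lower and S1pr2 higher in every desIgf1 library, without passing edgeR over all 6 libraries. S1pr4 passed with the block without number 2 (adjusted p = 0.00190) or number 3 (0.0499). Ccr7, the lymph node homing receptor, named after its values were seen, was at 308 ± 16.1 and 314 ± 75.1 CPM (log2 fold change 0.03, adjusted p = 0.975), and its sign turned with the setting. The list's median log2 fold change was 0.22.

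Of 15 tested FOXO family and target genes outside the members, 0 passed either fit and 0 had separate groups. Of these genes 8 lay above and 7 below 0, with a median log2 fold change of 0.06. Foxo4 was at 51.3 ± 6.48 CPM in controls and 47.6 ± 5.74 CPM with desIgf1. Il7r, the IL-7 receptor and a FOXO1 target, named after its values were seen, was at 372 ± 70.4 and 391 ± 104 CPM (edgeR adjusted p = 0.938). Klf2, also a known FOXO1 target, is one of the members and is not counted in this list. Among the tested genes of this list, only Irs2, Bcl2l11 and Txnip differed in 1 direction within every replicate number. They were named after their values were seen. Over all genes 17.2% were lower and 20.9% higher in all 3 numbers. Irs2 (log2 fold change -0.63 ± 0.23) and Bcl2l11 (-0.53 ± 0.18) were lower and Txnip (0.57 ± 0.29) higher. Their groups overlapped, and none passed the blocked edgeR fit (adjusted p = 0.170, 0.156 and 0.354). Whether Klf2, Il7r and these genes differ from each other in response was not tested. Among kinases upstream of FOXO, 0 of 6 genes passed either fit, with a median log2 fold change of -0.12. Akt2 was at 142 ± 11.3 and 124 ± 2.98 CPM, lower in every desIgf1 library (adjusted p = 0.625), and Akt1 at 361 ± 13.1 and 332 ± 37.1 CPM.

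**Figure D5:**
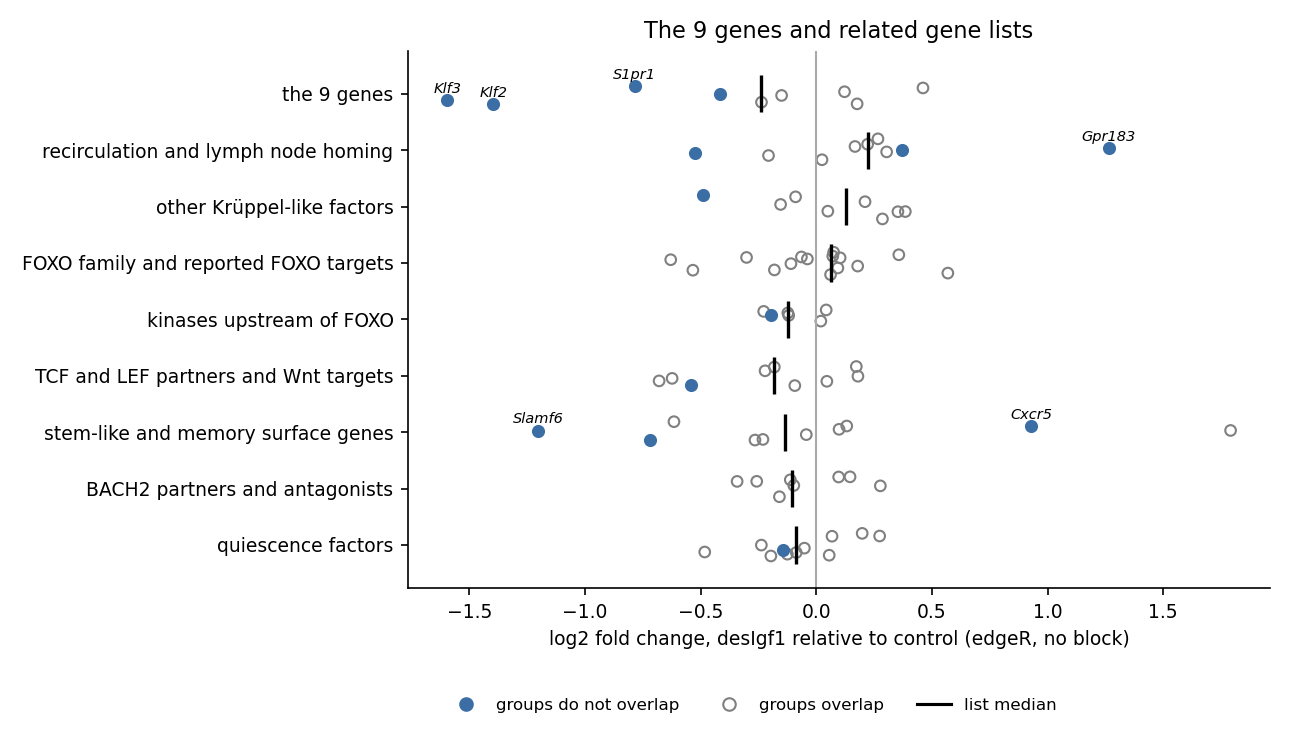
Unblocked log2 fold change (x axis) of the 9 genes and of the tested genes of 8 related lists (y axis, points spread vertically within a list); filled points have groups that do not overlap and black bars are list medians. Klf3, Klf2 and S1pr1 lie furthest left among the 9 genes, and Gpr183 (1.27) lies furthest right in the homing list. No point of the FOXO list, which does not hold the members, is filled.

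In each of the remaining lists 0 genes passed edgeR over all 6 libraries, with or without the block. Of 9 TCF and LEF partners and Wnt targets, Tle4, a corepressor that TCF and LEF factors recruit, was at 29.5 ± 1.14 CPM in controls and 20.2 ± 1.18 CPM with desIgf1, with separate groups (log2 fold change -0.54 ± 0.11, edgeR adjusted p = 0.316), and Ctnnb1 (β-catenin) was at 428 ± 31.1 and 401 ± 27.8 CPM. Of 10 stem-like and memory surface genes, Slamf6, a SLAM family receptor, had separate groups (log2 fold change -1.20 ± 0.14, adjusted p = 0.112), as had Il6ra, lower (-0.72 ± 0.10, 0.112), and Cxcr5, a follicle homing receptor, higher at 16.1 ± 4.44 against 8.49 ± 4.09 CPM (adjusted p = 0.584). Of 8 BACH2 partners and antagonists 0 had separate groups, and Bach1 was at 21.4 ± 2.62 and 19.8 ± 4.55 CPM. Of 11 quiescence factors only Tsc2, a brake on mTORC1, had separate groups, at 96.2 ± 3.51 and 87.1 ± 4.55 CPM (adjusted p = 0.673), while Tob1 was at 26.3 ± 1.16 and 23.0 ± 3.26 CPM. Other settings called some of these genes. Slamf6 and Il6ra passed edgeR without the filter on low counts (adjusted p = 0.0108 and 0.0441) and DESeq2 (3.37e-10 and 3.16e-06), and over the alternatives their adjusted p ran from 8.15e-11 to 0.546 and from 3.16e-06 to 0.605. Tle4 passed DESeq2 (adjusted p = 0.00291, the lowest over its alternatives, with 0.9995 the highest). The medians of these lists were -0.18, -0.14, -0.10 and -0.09.

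The genes most like Klf2 were found by the root mean square distance between log2 CPM values centred on each gene's mean over the 6 libraries, among genes at a mean of at least 1 CPM. The nearest was Sema3d, a secreted semaphorin, at a distance of 0.15, with 4.36, 2.49 and 1.86 CPM in controls and 1.28, 0.950 and 0.868 CPM with desIgf1. Pde5a (0.25), Glis3 (0.25) and Klf3 (0.28) were also among the 5 nearest. Pde5a, a cyclic GMP phosphodiesterase, was at 80.9, 47.5 and 48.4 CPM in controls and at 29.3, 20.7 and 22.7 CPM with desIgf1, and its log2 level fell by 1.25 ± 0.11 in the blocked edgeR fit (adjusted p = 0.0332, 0.297 without the block, and 5.92e-13 to 0.957 over the alternatives). These 4 genes had separate groups, which follows from likeness to Klf2, and they share their libraries and depth with it. The blocked call of Pde5a is likewise tied to its choice by likeness to Klf2 and adds no separate evidence. The nearest gene was BC106179 for Klf3 (0.15), Nipa1 for S1pr1 (0.11), Fam117a for Foxo1, Ccdc84 for Foxo3, Gm26799 for Tcf7, Ap5z1 for Bach2 and Cdkl3 for Satb1 (each 0.04), and Gm12932 for Lef1 (0.06). Between members, Tcf7 and Bach2 (0.12), Foxo1 and Foxo3 (0.12) and Lef1 and Bach2 (0.13) were closest, and Klf3 and Satb1 (1.06) were furthest apart. The distance is not scaled by each gene's spread, so genes that vary little lie close even where their patterns differ. Within number 2, for example, Tcf7 differed by 0.35 in log2 CPM and Bach2 by -0.05.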

How the data were processed

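The authors deposited whole-number counts per Ensembl gene, 1 file per library, not normalized. HTSeq 0.7.2, STAR 2.5.3 and Trim Galore 0.4.5 are listed, per the submitters' processing notes, with R 3.4.3, DESeq2 1.18.1, SAMtools 0.1.18 and the mouse build GRCm38 (mm10), without roles or settings. Per the labels' protocols the kit was stranded; how strand was set and which annotation release was counted is not given in the sources used here. The 5 summary lines of each file were left out. Reads without a gene were 13.5 to 15.7% and ambiguous reads 0.712 to 0.761% of uniquely placed reads. Symbols, positions and exon lengths came from GENCODE M21 (37607 of 39179 identifiers matched).

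The test was edgeR's robust quasi-likelihood test (edgeR 4.0.16, R 4.3.3) with TMM factors, after filterByExpr at a minimum count of 10, with Benjamini-Hochberg adjustment over 13846 genes and a threshold of 0.05. All 9 members passed the filter. CPM used TMM factors, and log2 CPM a prior count of 2. The SE was the log2 fold change over the square root of F, and the 95% intervals used its degrees of freedom. Replicate numbers come from the titles. Across genes, the deviation of a desIgf1 library from its group mean correlated with that of the control of its number at 0.59, 0.32 and 0.55 (numbers 1, 2 and 3). The numbers were therefore taken as pairs, a pairing read from the data that no label states. The block leaves 2 residual degrees of freedom, against 4. No libraries of a group were copies (chi-square per degree of freedom 40.5 or more). Alternatives used DESeq2 1.42.0 and limma 3.58.1 (voom), other filters and scaling, and left-out libraries.

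All 9 members are named. From each related list the rule named genes called in either fit, up to 4 genes with separate groups and the first gene, and genes among the 5 nearest to Klf2. The members and lists were chosen with earlier results of these data known. Some genes of these lists are not reported here and stay out of their counts. Lists are described by counts and medians, with no set test.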

Additional observations from a re-analysis of the deposited data

How the results depend on the processing

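The number of members called was 0 in the unblocked edgeR fit, and also with DESeq2 size factors, without a filter, with limma voom, without robust estimation and with each library left out. Pairing changed it. The replicate block called 1 of 9 members and 44 genes in all, and dropping number 1, 2 or 3 from it gave 1, 6 and 3 members and 72, 620 and 1069 genes. DESeq2 called 2 members and 208 genes, and with the replicate block, an alternative chosen after seeing the data, 4 members (4.05% of genes, 593). Without a filter 16 genes were called, and without both libraries numbered 3, also chosen after seeing the data, 12 genes and 0 members. Besides Klf2, Gpr183 and Pde5a, the last chosen by its likeness to Klf2, the block over all 6 libraries changed no call among the genes named. Among the members, without the libraries numbered 2 it also called Klf3, S1pr1, Tcf7 and Lef1 lower and Satb1 higher (adjusted p = 6.54e-05, 3.52e-06, 0.0284, 0.00297 and 0.0430), and without those numbered 3 Klf3 and S1pr1 (0.00861 and 0.0409), with 1 pair fewer; the cause was not tested. Of the other genes followed over these settings, S1pr4, Slamf6, Il6ra, Sema3d and Glis3 were also called, lower, without either number. Tle4 (lower) was called without number 2, Cxcr5 (higher) without number 3 and Slamf6 without number 1. Irs2, Bcl2l11, Txnip and Klf13 were not followed in this way.

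Among the genes followed over these settings, those whose sign turned passed neither edgeR fit over all 6 libraries. They were Foxo1 (-0.00970 without control library 2, and -0.0777 with the block without number 2), Foxo3 (-0.0141 in the latter) and Tcf7 (0.0569 with the block and 0.0350 unblocked without number 3). Others were Ccr7 (-5.85e-04 with voom, -8.42e-04 with the block, -0.186 without desIgf1 library 2, -0.0152 without control library 2, -0.223 with the block without number 2 and -0.00610 in DESeq2 with the block), Il7r (-0.143 without desIgf1 library 2 and -0.0446 without control library 3) and Klf4 (-0.406 without desIgf1 library 3 and -0.205 without control library 1). Bach1 turned without desIgf1 library 3 (0.0401) and without number 3 (0.0625 with the block, 0.0534 unblocked), and Foxo4 without number 3 (0.0507 and 0.0449). With each library left out in turn these values reached 0.214 for Foxo1, 0.136 for Ccr7, 1.16 for Klf4, 0.228 for Il7r and -0.240 for Bach1 at the other end. Among the 9 members depth limits Klf3 most, at 127 to 629 counts per library.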
